A study of Mus musculus with 6 samples.

Results

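The genes described here are p53, its regulators Mdm2 and Mdm4, and 7 genes that p53 is known to activate. They were chosen by name as Trp53, Mdm2, Mdm4, Ccng1, Perp, Gdf15, Fas, Zmat3, Phlda3 and Sesn1. All 10 were among the 12803 genes of the expression table, and all 10 passed the filter on low values. The members had between 240 and 79091 reads in a library.

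The data are 6 mRNA libraries from cultured mouse podocytes, epithelial cells that cover the capillaries of the glomerulus with their foot processes. Libraries 1 to 3 of WT came from the Mundel murine podocyte cell line, of genotype WT. Libraries 1 to 3 of KO came from a cell line that was derived from podocytes and labelled Myosin 1e KO, that is, as lacking the membrane-binding motor Myo1e. No treatment, temperature or age is given in the labels, and a heterozygous genotype named in the design text was not analysed here. Each genotype was 1 cell line, so genotype and other differences between the lines cannot be told apart. Nothing in the labels shows how the cultures were kept apart, so a p-value here covers only the spread among these samples, which may be technical.

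p53 is a transcription factor that is made and destroyed continually in unstressed cells. MDM2 is the ubiquitin ligase that marks p53 for destruction, and p53 in turn activates the Mdm2 gene, which closes a feedback loop. MDM4, a relative of MDM2, binds the activation domain of p53 and pairs with MDM2. When DNA damage or another stress frees p53, it raises genes that halt the cell cycle, repair DNA, adjust metabolism or kill the cell. Much of this control acts on the protein, which RNA libraries do not measure. Mundel podocytes are known as conditionally immortalised cells that carry a temperature-sensitive viral large T antigen, a protein that binds p53. Its presence in these cultures was not measured here, and the sources used here do not say whether the KO line carries it.

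The libraries held 35447096 to 42106461 reads in the listed genes. Levels are CPM (counts-per-million of the scaled library size), and 3 reads equal 0.0703 to 0.0856 CPM. Myo1e was at 17.3 ± 1.4 CPM in KO and 177 ± 8.4 CPM in WT (SD, n = 3 each), so the targeted gene and the labels went the same way. Of 12 podocyte markers 7 were tested, and 2 rose and 4 fell in KO; the defining marker Nphs1 was not analysed here. The summed level of the podocyte markers was 756 to 1011 CPM in KO and 1534 to 1719 CPM in WT. Of 17 tubular epithelium markers 13 were tested, and 9 rose and 3 fell, with sums of 7075 to 7595 CPM in KO and 1565 to 2446 CPM in WT. The 9 that rose were genes of epithelia in general (Epcam, Cdh1, Esrp1, keratins and claudins), of which Cldn3, Cldn7 and Esrp1 had 0 reads in every WT library. Tubule genes of the same list fell: the water channel Aqp1 from 640 ± 202 CPM to 1.85, 2.91 and 3.34 CPM in the KO libraries, the endocytic receptor Lrp2 from 331 ± 121 to 14.0 ± 5.1 CPM and the cadherin Cdh16 from 975 ± 209 to 92.5 ± 27 CPM. Cubn did not pass, at 3.41 ± 0.74 CPM in KO and 3.48 ± 0.77 CPM in WT. All 6 tested mesenchymal markers fell, with sums of 333 to 660 CPM in KO and 3578 to 3984 CPM in WT. Only 1 of 8 endothelial and 2 of 8 leukocyte markers were in the table. The part of these marker differences in the results below was not tested. In bulk libraries, fewer cells that express a gene and less RNA of it per cell cannot be told apart.

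In KO compared with WT, Trp53 and Mdm2 rose by about the same factor while Mdm4 fell. The targets divided: Perp, Gdf15 and Ccng1 rose, Fas, Sesn1 and Phlda3 fell, and Zmat3 did not pass the test. In all, 5 members rose and 4 fell at an adjusted p under 0.05 (limma on log2 CPM, Benjamini-Hochberg over 12616 genes). Among all genes tested 68.1% passed, 34.3% as higher and 33.8% as lower in KO, so a call alone does not set these genes apart. The groups did not overlap in 9 of 10 members, against 73.5% of all genes tested. The median log2 fold change of the members was 0.20, and that of all genes tested was 0.01 (mean -0.06). Without regard to sign, the median was 1.13 for the members and 0.51 for all genes tested. A called difference of at least 2-fold was found in 6 members, against 27.9% of all genes tested. Members and the lists below were chosen with earlier results of these data known. Comparisons of them with all genes therefore describe the sets and are not independent evidence. An exact permutation test over the 6 libraries cannot give less than p = 0.1, which is what each of the 9 called members reached.

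**Figure D1:**
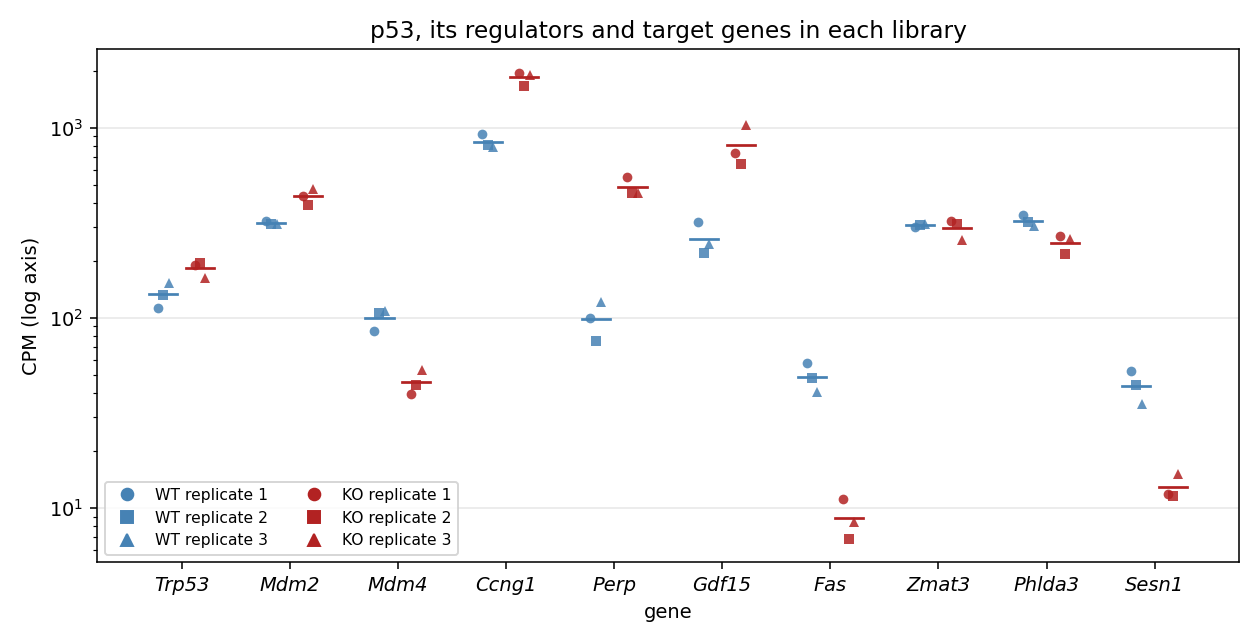
Level of each of the 10 genes in CPM on a log axis (y) by gene (x), with 1 point for each of the 3 WT (blue) and 3 KO (red) libraries and a bar at each group mean. The KO points lie above all WT points for Trp53, Mdm2, Ccng1, Perp and Gdf15, below them for Mdm4, Fas, Phlda3 and Sesn1, and among them for Zmat3.

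p53 binds DNA as a tetramer, at elements made of half-sites of 10 bases. The 300 bases around annotated starts, 250 before to 50 after, were searched for the p53 half-site consensus, which equals its own reverse complement and so reads the same on both strands. RefSeq promoter sequences (GRCm38.p6) matched 8 of the 10 genes, without Perp and Zmat3, and gave 11 windows. A half-site was in 4 of these 11 windows, those of Trp53, Mdm2, Ccng1 and 1 of the 2 starts of Sesn1. Among all 32851 windows 8.36% held one. All 4 of these matches are shown. The 4 genes cover both regulators and targets, and they did not move together: the first 3 rose and Sesn1 fell. The half-site is in capitals, and each sequence reads 5′ to 3′ on the strand of its gene. Trp53 is shown with 10 flanking bases on each side, and the others with 50. The longer flank of Trp53 would reach its neighbour Wrap53, a gene on the minus strand from 69561758 to 69580255. The half-site thus lies between the starts of these genes.
Trp53, chr11:69580274-69580303, plus strand, half-site 75 to 66 bases before the start: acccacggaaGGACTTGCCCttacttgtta
Mdm2, chr10:117710885-117710994, minus strand, half-site 186 to 177 bases before the start: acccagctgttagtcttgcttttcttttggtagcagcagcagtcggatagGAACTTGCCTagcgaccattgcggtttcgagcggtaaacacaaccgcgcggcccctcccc
Ccng1, chr11:40755412-40755521, minus strand, half-site 185 to 176 bases before the start: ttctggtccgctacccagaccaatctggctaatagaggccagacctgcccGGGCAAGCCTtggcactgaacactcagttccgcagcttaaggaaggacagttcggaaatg
Sesn1, chr10:41887216-41887325, plus strand, half-site 173 to 164 bases before the start: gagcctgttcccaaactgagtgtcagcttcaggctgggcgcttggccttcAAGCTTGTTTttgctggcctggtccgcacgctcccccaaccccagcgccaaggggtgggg
No half-site was found in the windows of Mdm4, Gdf15, Fas and Phlda3, which says only that the consensus is not in those 300 bases. The known p53 elements of Mdm2 lie in its first intron, outside the window searched. Cdkn1a, a target described below that did not pass, was searched too. Window 1 of Cdkn1a held 2 half-sites, 73 to 64 and 51 to 42 bases before the start, and window 2 held 0. A match describes the letters and is not evidence of binding.

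Trp53 encodes p53 itself (chromosome 11, 69580359 to 69591873, plus strand, GRCm38 with GENCODE M21, protein-coding). The KO libraries 1 to 3 had 191, 194 and 161 CPM of it, and the WT libraries 1 to 3 had 112, 133 and 153 CPM. The lowest KO library was just above the highest WT library, so the groups were separate but close. This was a 1.38-fold difference (log2 fold change 0.46, SE 0.12, 95% interval 0.18 to 0.75, limma adjusted p = 0.0103). A rise larger than this was found in 25.5% of all genes tested. A processed pseudogene of Trp53 lies on chromosome 17 and was not among the genes analysed here, so reads shared with it may have been lost or miscounted.

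Mdm2, the ligase that degrades p53, lies on chromosome 10 (117688875 to 117710758, minus strand). Its 3 KO libraries were at 437, 392 and 477 CPM, and its WT libraries at 325, 310 and 313 CPM. The WT libraries were nearly alike, and each KO library exceeded them. Mdm2 was thus 1.37-fold higher (log2 fold change 0.46, SE 0.09, 95% interval 0.25 to 0.67, limma adjusted p = 0.00211). The reads are given per gene, so transcripts from the first promoter of Mdm2 and from its p53-responsive internal promoter could not be separated.

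Mdm4, the partner and relative of Mdm2, went the other way (chromosome 1, 132959484 to 133030561, minus strand). It was at 39.6, 44.1 and 53.4 CPM in KO and 85.4, 106 and 109 CPM in WT, with no overlap. KO had 45.6% of the WT mean (log2 fold change -1.13, SE 0.13, 95% interval -1.44 to -0.83, limma adjusted p = 0.000102). A larger fall was found in 14.6% of all genes tested. A processed pseudogene of Mdm4 lies on chromosome X and was not among the genes analysed here.

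Ratios of these transcripts within a library do not depend on the scaling between libraries. Per kb of annotated exon, the ratio of Mdm2 to Mdm4 was 32.1, 25.9 and 26.0 in KO, and 11.1, 8.49 and 8.38 in WT. The KO mean of 28.0 ± 3.5 was 3.01 times the WT mean of 9.31 ± 1.5 (SD, n = 3, exact two-sided permutation p = 0.1). The ratio of Mdm2 to Trp53 was 1.82, 1.61 and 2.36 in KO and 2.30, 1.86 and 1.63 in WT. Here the groups overlapped fully, with means of 1.93 ± 0.38 and 1.93 ± 0.34 (exact two-sided permutation p = 1). That of Mdm4 to Trp53 was 0.0568, 0.0623 and 0.0905 in KO and 0.208, 0.219 and 0.195 in WT, with a WT mean 2.96 times that of KO (exact two-sided permutation p = 0.1). The exon length covers all annotated transcripts of a gene, so the size of a ratio rests on that annotation, while the factor between the lines does not.

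**Figure D2:**
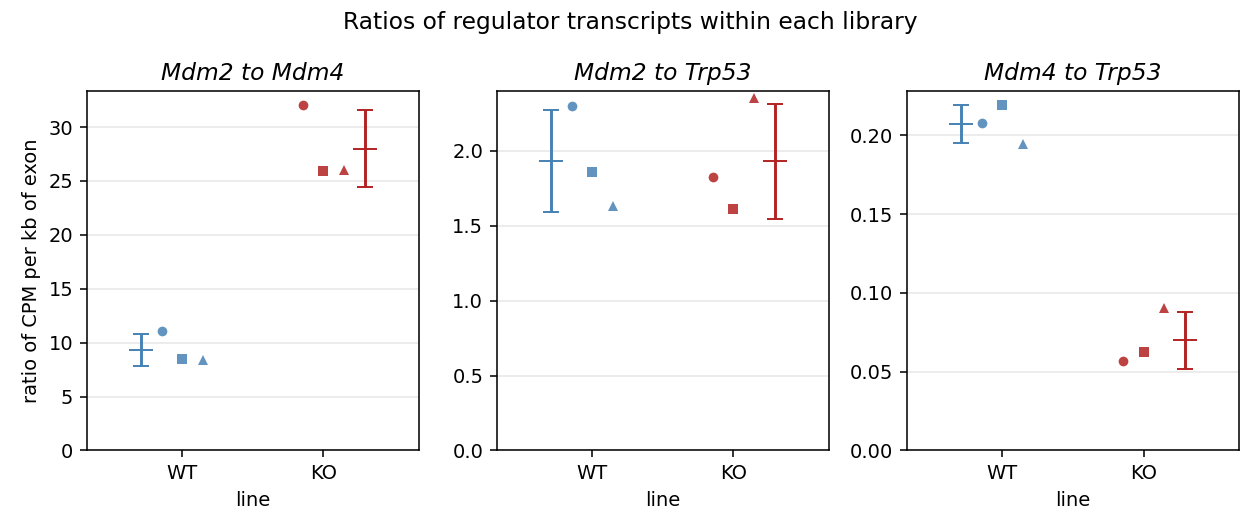
Ratio of CPM per kb of exon (y) between Mdm2, Mdm4 and Trp53 in each of the 3 WT and 3 KO libraries (points, with symbols for replicates 1 to 3 as circle, square and triangle), with the mean and SD of each line beside them. The Mdm2 to Mdm4 ratio is 28.0 in KO and 9.31 in WT, the Mdm2 to Trp53 ratio overlaps between the lines, and the Mdm4 to Trp53 ratio is lower in every KO library.

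Among the targets of arrest and feedback, Ccng1 encodes cyclin G1, a partner of a phosphatase that acts on MDM2 (chromosome 11, 40748552 to 40755311, minus strand). It was at 1946, 1668 and 1901 CPM in KO and 927, 814 and 791 CPM in WT. Every KO library was far above the WT libraries. Cyclin G1 transcripts were 2.18-fold higher (log2 fold change 1.12, SE 0.12, limma adjusted p = 4.75e-05).

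Perp, a membrane protein of desmosomes that p53 and p63 activate, showed the largest rise of the 10 genes (chromosome 10, 18845020 to 18857073, plus strand). It was at 552, 453 and 455 CPM in KO and 99.5, 75.3 and 121 CPM in WT. The KO mean was 4.93 times that of WT (log2 fold change 2.32, SE 0.17, limma adjusted p = 5e-06), without overlap. A larger rise was found in 5.91% of all genes tested. Trp63, which encodes p63, fell from 2.91 ± 0.69 to 0.614 ± 0.18 CPM (log2 fold change -2.21, limma adjusted p = 0.000194). The p63 protein was not measured, and the part of p63 in the level of Perp was not tested. With a pseudocount of 1 CPM the log2 fold change of Trp63 was -1.27, and over 12 other settings it ran from -2.42 to -1.27 and passed in each. The 9 general epithelial genes given above rose as Perp did, while Aqp1, Lrp2 and Cdh16 of the same list fell, and the part of these genes in the rise of Perp was not tested.

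Gdf15, a secreted stress cytokine of the TGF-beta superfamily that other stress pathways also raise, lies on chromosome 8 (70629393 to 70632456, minus strand). It was at 741, 648 and 1039 CPM in KO and 319, 221 and 244 CPM in WT. KO replicate 3 was the highest library, and the lowest KO library was still above the highest WT library. Gdf15 was 3.07-fold higher (log2 fold change 1.62, SE 0.19, limma adjusted p = 0.00011). The spread among KO libraries, a coefficient of variation of 25.2%, was the largest of any member in either group.

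Fas, the death receptor that starts the extrinsic path of apoptosis, fell most of the 10 genes (chromosome 19, 34290666 to 34327772, plus strand). It was at 11.1, 6.85 and 8.46 CPM in KO and 58.0, 48.4 and 40.5 CPM in WT. No KO library came near the WT libraries, and Fas was 5.60-fold lower (log2 fold change -2.49, SE 0.19, limma adjusted p = 8.28e-06). A larger fall was found in 7.01% of all genes tested.

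Sesn1 encodes a sestrin, which restrains the growth kinase mTORC1 and limits oxidants (chromosome 10, 41809935 to 41908424, plus strand). It was at 11.8, 11.6 and 15.0 CPM in KO and 52.4, 44.5 and 35.1 CPM in WT, again without overlap. The difference was 3.40-fold (log2 fold change -1.77, SE 0.17, limma adjusted p = 2.57e-05). Its relative Sesn2, named after its value was seen, rose from 97.2 ± 2.5 to 144 ± 12 CPM (log2 fold change 0.56, limma adjusted p = 0.000366).

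Phlda3, a repressor of the survival kinase Akt, lies on chromosome 1 (135766119 to 135769136, plus strand). It was at 268, 217 and 261 CPM in KO and 347, 319 and 303 CPM in WT. The groups were separate but close, as for Trp53. KO had 77.1% of the WT mean (log2 fold change -0.38, SE 0.10, 95% interval -0.61 to -0.14, limma adjusted p = 0.0103). Zmat3, an RNA-binding zinc finger protein that regulates splicing and transcript stability, lies on chromosome 3 (32334792 to 32366014, minus strand). It was at 324, 310 and 258 CPM in KO and 301, 308 and 311 CPM in WT, so the KO libraries fell on both sides of the WT libraries. Its log2 fold change was -0.05 (95% interval -0.28 to 0.17, limma adjusted p = 0.66).

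**Figure D3:**
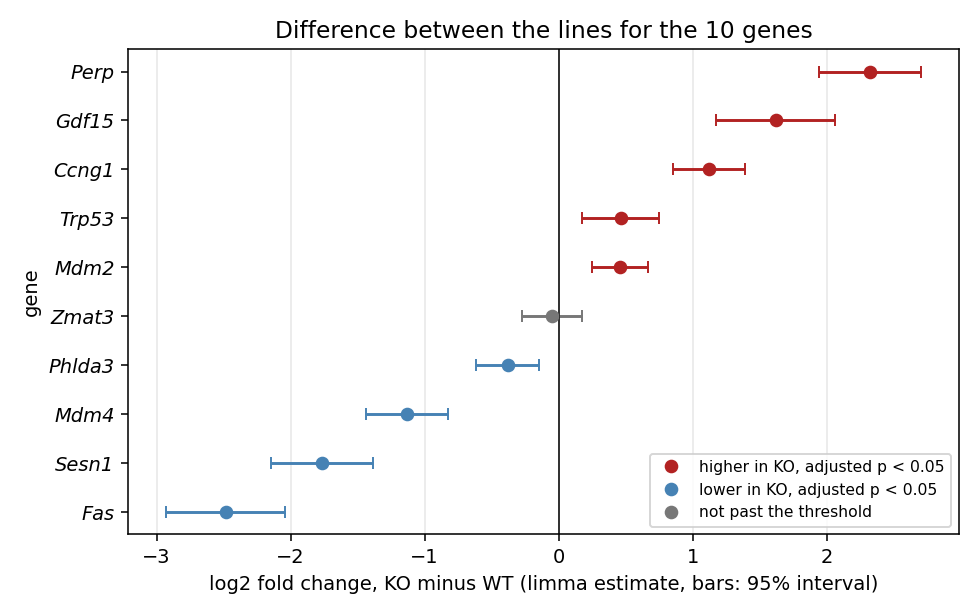
Log2 fold change of KO minus WT (x) for each of the 10 genes (y), as the limma estimate with its 95% interval, coloured by whether it passed as higher, as lower or not at all. Estimates run from -2.49 for Fas to 2.32 for Perp, and only the interval of Zmat3 includes 0.

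Levels can be set side by side between genes only per length of exon. That length covers all annotated transcripts of a gene, 14798 bases for Mdm4, so the order rests on the annotation. In CPM without this division Mdm4 was above Fas and Sesn1 in both lines, at 45.7 ± 7.0 in KO and 100 ± 13 in WT. In CPM per kb, Ccng1 was first in both lines, at 523 ± 43 in KO and 240 ± 21 in WT. In KO it was followed by Gdf15 at 437 ± 110, whose libraries overlapped with those of Ccng1, then by Perp at 249 ± 29 and Phlda3 at 160 ± 18. In WT the order was Phlda3 at 207 ± 14, Gdf15 at 141 ± 28, Mdm2 at 62.1 ± 1.5 and Perp at 50.6 ± 12, of which the last pair overlapped. Trp53 was sixth in both lines, at 45.0 ± 4.4 in KO and 32.8 ± 5.0 in WT, and Zmat3 seventh. The lowest 3 in both were Fas, Sesn1 and Mdm4. In KO these 3 were at 4.27 ± 1.0, 3.22 ± 0.48 and 3.09 ± 0.47 CPM per kb, and neighbours in that order overlapped. In WT they were at 23.8 ± 4.2, 11.0 ± 2.2 and 6.77 ± 0.87, where Fas overlapped with Zmat3 but Sesn1 and Mdm4 were apart.

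Other genes of the p53 pathway were sorted by role in lists that leave out the members. The lists were written from general knowledge of the pathway. The role of a gene and its direction under p53 were not checked in these data, so counts over a list do not measure p53 activity. Of 136 such genes 132 were in the table and 131 were tested, of which 48 rose and 52 fell (76.3% called, beside 68.1% of all genes tested). Their median log2 fold change was -0.02. Of the 84 tested targets of p53, 32 rose and 34 fell, and of the 47 tested regulators 16 and 18 did.

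The relatives and cofactors of p53 held 6 genes that rose and 9 that fell, of 18 tested (median log2 fold change -0.19). The ASPP genes, whose proteins bind p53 and steer its choice of targets, did not move together. Ppp1r13l, which encodes the inhibitory iASPP, rose from 23.5 ± 1.7 to 95.5 ± 10 CPM (log2 fold change 2.02, limma adjusted p = 6.5e-07). Trp53bp2, which encodes ASPP2, rose from 49.0 ± 2.1 to 130 ± 22 CPM, while Ppp1r13b, which encodes ASPP1, fell from 46.9 ± 6.7 to 26.1 ± 1.1 CPM. Pml, the organiser of nuclear bodies where p53 is modified, fell from 188 ± 6.8 to 96.0 ± 8.4 CPM. Trp73 was not analysed here.

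Among genes of p53 turnover, 6 rose and 5 fell of 15 tested (median log2 fold change 0.12 and mean -0.03, which differ in sign). Cdkn2a, whose locus encodes the MDM2 inhibitor ARF and the kinase inhibitor p16, was at 63.9, 60.6 and 68.7 CPM in KO and 220, 194 and 184 CPM in WT. The groups lay far apart, and the gene fell by 1.63 on the log2 scale (SE 0.09, limma adjusted p = 1.04e-06). Reads per gene do not tell the ARF and p16 transcripts apart. Rchy1, another ubiquitin ligase of p53, fell from 79.3 ± 3.5 to 46.4 ± 2.5 CPM. Npm1 and Rpl23, whose proteins can bind MDM2, rose from 409 ± 58 to 585 ± 31 and from 222 ± 14 to 425 ± 40 CPM.

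The kinases that act on p53 after DNA damage, with their partners and the opposing phosphatase, held 4 that rose and 4 that fell of 14 tested (median log2 fold change -0.07). Atm, the kinase of double-strand breaks, fell from 73.0 ± 18 to 33.4 ± 2.2 CPM (log2 fold change -1.10, limma adjusted p = 0.000444). Chek1 fell from 13.9 ± 1.5 to 3.88 ± 1.6 CPM. Its functional counterpart Chek2 rose from 15.5 ± 0.22 to 21.2 ± 0.53 CPM, and the casein kinase gene Csnk1d from 203 ± 8.6 to 277 ± 17 CPM.

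Targets that slow the cell cycle held 5 that rose and 7 that fell of 16 tested (median log2 fold change -0.11 and mean 0.30, which differ in sign). Cdkn1a, the p21 inhibitor of cyclin-dependent kinases and the best known target of p53, was at 872, 776 and 850 CPM in KO and 1045, 828 and 763 CPM in WT. The groups overlapped, and the gene did not pass (log2 fold change -0.07, limma adjusted p = 0.673). Sfn, which encodes the epithelial protein 14-3-3 sigma, rose from 3.83 ± 0.26 to 85.2 ± 18 CPM, and the secreted growth regulator Cgref1 from 0.697 ± 0.23 to 32.6 ± 3.3 CPM. Rprm, which encodes reprimo, fell from 51.9 ± 3.7 to 2.35 ± 0.21 CPM and the spindle gene Psrc1 from 175 ± 4.0 to 94.1 ± 16 CPM.

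Apoptosis targets held 9 that rose and 5 that fell of 19 tested (median log2 fold change 0.19). Pmaip1, which encodes the BH3-only protein NOXA, rose from 128 ± 16 to 389 ± 47 CPM (3.04-fold, limma adjusted p = 6.24e-06), and Trp53i11 from 26.6 ± 1.8 to 96.1 ± 7.1 CPM. Bax, the pore-forming effector, did not pass (limma adjusted p = 0.812), at 107 ± 15 CPM in KO beside 104 ± 4.6 CPM in WT. Siva1 fell from 44.0 ± 3.8 to 26.4 ± 1.0 CPM. The zinc finger gene Plagl1 was at 7.88 ± 2.9 against 13.6 ± 3.7 CPM and passed narrowly (limma adjusted p = 0.0423). It did not pass in 5 of 13 other settings, among them without KO replicate 3, WT replicate 1 or WT replicate 3 (adjusted p = 0.103, 0.0654 and 0.127), with 0.0352 to 0.127 over all 13. Its log2 fold change went from -0.84 to -0.47 without KO replicate 3.

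Targets of metabolism and oxidant defence held 5 that rose and 9 that fell of 19 tested (median log2 fold change -0.32). Ddit4, an inhibitor of mTORC1, rose from 74.5 ± 7.0 to 226 ± 22 CPM, while its relative Ddit4l fell from 88.2 ± 14 to 5.99 ± 1.4 CPM (log2 fold change -3.89, limma adjusted p = 5.64e-07). Tigar, a phosphatase that slows glycolysis, rose from 18.3 ± 1.6 to 47.0 ± 2.3 CPM. Cpt1c, a carnitine palmitoyltransferase of the endoplasmic reticulum, fell from 121 ± 5.9 to 0.463 ± 0.14 CPM. Among 12 DNA repair targets 5 rose and 6 fell (median log2 fold change -0.22). The damage sensors of nucleotide excision repair Ddb2 and Xpc rose, from 6.86 ± 0.42 to 11.8 ± 1.6 CPM and from 53.6 ± 6.4 to 104 ± 8.3 CPM. The methyltransferase Mgmt fell from 24.4 ± 4.5 to 9.38 ± 1.3 CPM and the replication clamp Pcna from 98.3 ± 14 to 39.5 ± 4.3 CPM.

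Secreted and surface targets held 8 that rose and 7 that fell of 18 tested (median log2 fold change 0.06). The growth factor binding protein Igfbp3 rose from 0.703 ± 0.17 to 17.5 ± 3.7 CPM. The epithelial serpin Serpinb5 had 2 reads in the WT group and a mean of 9.14 ± 1.9 CPM in KO, a ratio of 537 with an exact 95% counting interval of 148 to 4444, which covers counting error only. The membrane-bound chemokine Cx3cl1 fell from 227 ± 6.7 to 58.4 ± 15 CPM. Ulbp1, a stress ligand of natural killer cells, fell from 137 ± 8.4 to 0.677 ± 0.044 CPM (log2 fold change -7.60, limma adjusted p = 2.48e-09).

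**Figure D4:**
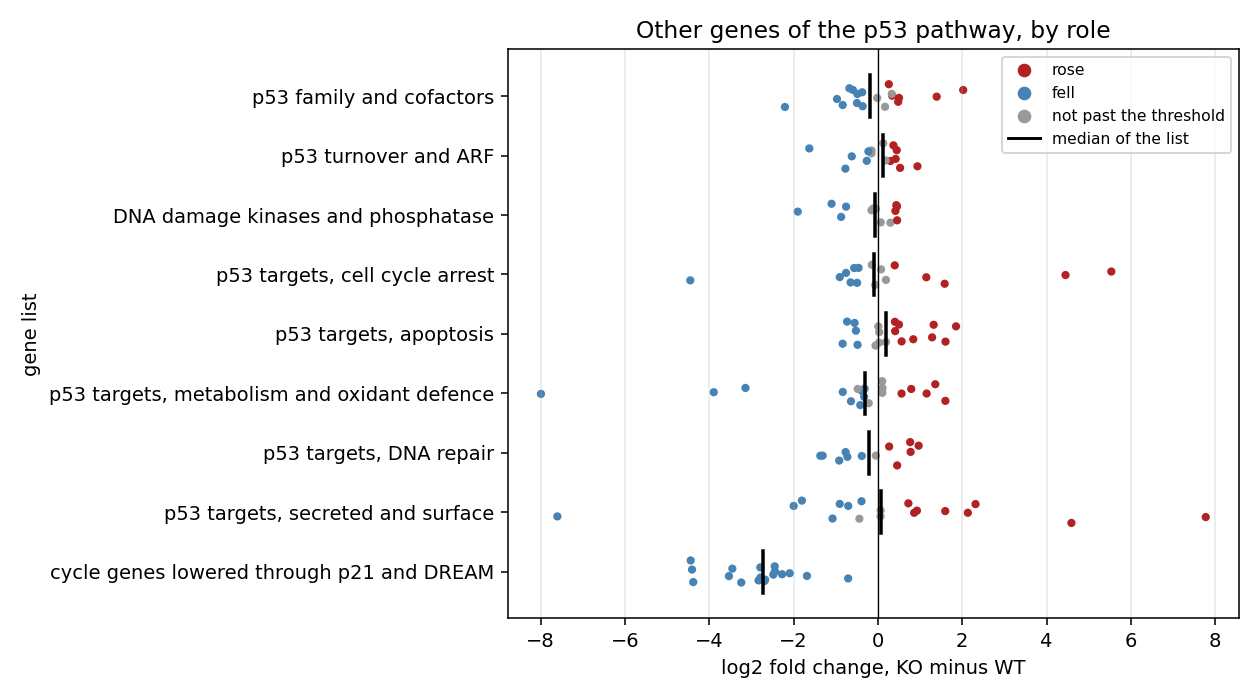
Log2 fold change of KO minus WT (x) for each tested gene of the other p53 pathway lists (y), with points coloured as rose, fell or not past the threshold and a black bar at the median of the list. The lists of regulators and targets lie on both sides of 0 with medians from -0.32 to 0.19, while all 18 genes of the cycle list lie below 0 with a median of -2.74.

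p53 also lowers a set of proliferation genes, through p21 and the repressive DREAM complex. All 18 genes of this list were tested and all fell in KO, with a median log2 fold change of -2.74, against 33.8% of all genes tested that fell. Their transcripts are also known to mark dividing cells in general. Mki67, the classical proliferation marker, was at 9.55, 9.22 and 3.10 CPM in KO and 79.8, 211 and 169 CPM in WT (log2 fold change -4.44, limma adjusted p = 5.83e-05). Ccnb2, a mitotic cyclin, fell from 21.7 ± 8.1 to 1.03 ± 0.47 CPM. The summed level of the list was 131, 156 and 92.8 CPM in KO replicates 1 to 3 and 553, 1098 and 949 CPM in WT replicates 1 to 3. The RNA of Cdkn1a, which encodes p21, did not pass, as given above. Neither p21 protein nor DREAM activity was measured, and the part of p53 in the fall of these genes was not tested.

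In the cycle genes 1 library of each line lay below the other two. WT replicate 1 was the lowest WT library in 17 of 18 cycle genes, against 4823 of 12616 genes tested, and KO replicate 3 the lowest KO library in 16 of 18, against 4789 of 12616. All 18 cycle genes fell without either of these libraries too. WT replicate 1 was the highest WT library in 6 of the 10 members and the lowest in 3, beside 5264 and 4823 of all 12616 genes. Among the 8 members that p53 activates, Mdm2 included, it was the highest in 6 and the lowest in 1. Whether its place among the members differs from the general share was not tested. KO replicate 3 was the lowest KO library in 2 of the 10 members. Without WT replicate 1 the log2 fold change was 0.35 for Trp53 (limma adjusted p = 0.0258, with 0.0034 to 0.0418 over 13 settings), 0.48 for Mdm2, 1.19 for Ccng1 and 1.77 for Gdf15. It was -1.25 for Mdm4, -2.36 for Fas, -1.63 for Sesn1 and -0.33 for Phlda3 (limma adjusted p = 0.0324, with 0.00977 to 0.0324 over 13 settings), and all 8 kept their calls. Without KO replicate 3 the log2 fold changes included 0.55 for Trp53, 0.39 for Mdm2, 1.43 for Gdf15 and -0.42 for Phlda3 (limma adjusted p = 0.00922, 0.00491, 0.000367 and 0.0159), and the 9 called members passed again. The part of the proliferation genes in the differences of the members was not tested. Nor was it tested for the other pathway lists, Pcna and Chek1 among them.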

How the data were processed

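Reads were processed with Trimmomatic 0.39, STAR 2.7.3a, featureCounts of Subread 1.6.4 and edgeR on GRCm38, per the submitters' processing notes. The authors deposited 1 table of log2 CPM, with a column for each of the 6 libraries. No source used here gives the annotation, strand setting, filter or prior. Whole reads were worked back from the steps of each column (100% of values whole within a tolerance of 0.001), and CPM are those reads on the authors' scaled library size, without the prior.

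The test was limma 3.58.1 (R 4.3.3) on the deposited log2 values, with an intensity trend, KO minus WT and no covariates. It covered 12616 genes above 0 log2 CPM in at least 3 libraries, and 187 were not tested. The threshold was an adjusted p under 0.05, with the Benjamini-Hochberg method over all tested genes. Reads were also simulated from the WT means, with 200 genes changed and the same dispersion for every gene. Of 12080 genes tested there, 100% of those changed 2-fold and 100% changed 4-fold were called. Among 11880 unchanged genes there were 4 calls. Smaller differences, and differences in spread between genes, were not simulated, so these rates are not those of the real data. Positions and exon lengths come from GENCODE M21, in which 12673 symbols matched. Exact permutation tests ran over the libraries.

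The named genes are the members, Cdkn1a, Cdkn2a, Bax, Trp63 and Trp73 where listed, and from each other pathway list up to 2 risen and 2 fallen genes with the largest change. These had to pass, not overlap between groups and reach a mean of 5 CPM in the higher line. The members and lists were chosen with earlier results of these data known. Alternatives changed the trend, filter, pseudocount, scaling, tool and replicates.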

Additional observations from a re-analysis of the deposited data

How the results depend on the processing

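The 13 other settings were limma without the trend, no filter, a mean of at least 2 log2 CPM, a pseudocount of 1 CPM, median-of-ratios scaling, limma voom on recovered reads, a replicate block and each library left out. The members that rose and fell were 5 and 4 in every one. Of 48 named genes, counting Myo1e, 47 kept their call in each setting that tested them, and Plagl1 lost it in 5. Among genes that did not pass, the sign depended on single libraries. With 1 library left out at a time, log2 fold changes ran from -0.12 to 0.048 for Zmat3, from -0.16 to 0.065 for Cdkn1a and from -0.080 to 0.099 for Bax; Zmat3 was positive without KO replicate 3 and Cdkn1a without WT replicate 1, while Bax was negative without KO replicate 3 or WT replicate 1 (-0.0072). The pseudocount of 1 CPM shortened the log2 fold changes of genes near 0 reads, for Serpinb5 from 7.78 to 3.30, for Trp63 from -2.21 to -1.27 and for Cpt1c from -7.99 to -6.39. The edgeR test on recovered reads was not run, because the deposited values are log2. Whether same-numbered libraries were paired is not given in the labels, and they were treated as unpaired. Deviations of same-numbered libraries correlated at 0.10, 0.08 and -0.10 across genes, and not every KO library correlated best with its own number. With 3 libraries in a group these correlations are not independent, so they cannot decide whether a pairing or a shared batch exists. With the replicate block 8395 genes passed, against 8590 without it. Counting precision limits only genes with few reads, such as Serpinb5 in WT.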
